A study of Mus musculus with 2 samples.

Results

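Ctsk, Mmp9, Acp5, Car2 and Slc37a2 are genes by which osteoclasts (OCs) acquire the means to resorb bone, and their transcripts were followed here by single-cell mRNA sequencing (scRNA-Seq). The rows with these symbols were taken from the count tables of both libraries, which gave 5 of 32544 genes. Both libraries came from murine bone marrow-derived monocytes (BMDMs) that were given M-CSF at 50 ng/ml with RANKL at 100 ng/ml, and cells were collected 24 h after RANKL. The control group was 1 library whose genotype is given only as control. The mutant group was 1 LysM-Cre;Arid1afl/fl library, in which Cre is driven from the Lyz2 locus of myeloid cells and removes the floxed part of Arid1a, which encodes a DNA-binding subunit of BAF-type chromatin remodelers. How many animals each library held was not stated, and recombination by LysM-Cre need not reach every cell. The comparison asks how the resorption genes stand at this early stage when Arid1a is deleted in the myeloid lineage, in cycling cells and in those that are not cycling.

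An OC seals off a patch of bone, pumps acid onto it and digests the exposed matrix. Car2 encodes carbonic anhydrase 2, which supplies the protons for the acid. Ctsk encodes cathepsin K, the main collagen-degrading protease of the OC, and Mmp9 encodes a gelatinase. Acp5 encodes tartrate-resistant acid phosphatase (TRAP), the enzyme stained to identify OCs, and Slc37a2 encodes a sugar phosphate transporter of the endoplasmic reticulum and lysosome-related membranes that is abundant in macrophages and OCs. RANKL induces this set largely through the transcription factor NFATc1, together with PU.1, MITF and AP-1, in precursors that also express macrophage genes.

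Cells were kept at 500 or more genes and up to 10% of mitochondrial unique molecular identifiers (UMIs), which gave 6269 control cells (163618835 UMIs) and 5663 mutant cells (131469887 UMIs). The median depth was 23978 and 21734 UMIs per cell. Of all barcodes, 8 sequences occurred in both libraries. Arid1a itself was at 51.9 UMIs per 1000000 (CPM) in the control library and 20.4 CPM in the mutant library (log2 ratio -1.35, -1.41 to -1.28), and transcripts of a recombined allele are still counted at the 3′ end. All 8 macrophage and monocyte markers were above 20 CPM in both libraries, and they summed to 12075 CPM in control and 7984.5 CPM in mutant cells. Erythroid, lymphoid, mast cell, dendritic and stromal markers were each below 5 CPM. Of the megakaryocyte markers only Pf4, which macrophages also express, was above 20 CPM, and the list summed to 656 and 795 CPM. The 5 neutrophil markers summed to 267 CPM in control and 2000 CPM in mutant cells, and 19 and 89 cells fell in a neutrophil gate (at least 1% of UMIs from these markers). With 1 library per genotype no test across samples could be made. All intervals are 95%, and the limit given for a count of 0 is the value that 3 counts would have. Both cover counting error only, so a difference outside them is larger than that error and has no replicate check for the genotypes. UMIs of a gene can cluster in few cells. At 5000 UMIs per control cell, the variance over the mean was 5.94 for Ctsk and 1.21 for Slc37a2. Intervals of summed UMIs leave out this sampling of cells and are too narrow for it.

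All 5 genes are protein-coding. On GRCm39, Ctsk (ENSMUSG00000028111) lies at chr3:95406178-95416732 on the plus strand, Mmp9 (ENSMUSG00000017737) at chr2:164780439-164797771 on the plus strand, and Car2 (ENSMUSG00000027562) at chr3:14951317-14967568 on the plus strand. Acp5 (ENSMUSG00000001348) lies at chr9:22038023-22049355 and Slc37a2 (ENSMUSG00000032122) at chr9:37138881-37167112, both on the minus strand. Acp5 is overlapped on the opposite strand by 6530413G14Rik, and Slc37a2 by Gm10177, Gm48081 and Gm65989, and since use of the strand in counting was not stated, these levels are uncertain by whatever reads those genes added. RefSeq promoter entries were found for 3 of the 5 genes, Ctsk, Acp5 and Slc37a2, with 5 start sites in all, of which 3 belong to Acp5. These sequences are shown because the 3 genes behaved differently in the counts: Ctsk was lower in the mutant library, Acp5 was lower in level but detected in more cells at 5000 UMIs, and Slc37a2 was slightly higher. The 250 bases before the start site are given 5′ to 3′ on the gene's strand (GRCm38.p6), at chr3:95498960-95499209 (plus) for Ctsk, chr9:22130599-22130848 (minus) for an Acp5 start and chr9:37255739-37255988 (minus) for Slc37a2. Capitals mark matches on either strand to GGAAA (NFAT), GAGGAA (PU.1), TGANTCA (AP-1), and CACGTG or CATGTG (E-box), and an NF-kB site was searched as well.
Ctsk: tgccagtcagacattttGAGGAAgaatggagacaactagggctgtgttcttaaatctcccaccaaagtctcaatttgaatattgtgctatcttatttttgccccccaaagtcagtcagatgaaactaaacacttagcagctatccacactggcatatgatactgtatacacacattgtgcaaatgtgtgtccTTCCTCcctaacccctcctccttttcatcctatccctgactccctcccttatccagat
Acp5: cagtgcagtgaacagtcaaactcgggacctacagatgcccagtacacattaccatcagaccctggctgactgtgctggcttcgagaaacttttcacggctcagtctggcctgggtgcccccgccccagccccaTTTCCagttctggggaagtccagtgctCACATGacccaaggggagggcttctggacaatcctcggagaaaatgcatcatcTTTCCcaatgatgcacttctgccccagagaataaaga
Slc37a2: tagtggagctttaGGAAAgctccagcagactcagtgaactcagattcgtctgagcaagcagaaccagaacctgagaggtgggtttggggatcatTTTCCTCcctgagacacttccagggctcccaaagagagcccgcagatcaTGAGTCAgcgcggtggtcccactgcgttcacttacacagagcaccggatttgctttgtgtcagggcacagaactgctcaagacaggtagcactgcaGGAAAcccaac

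The Ctsk window held 2 matches to GAGGAA, at -233 to -228 and at -58 to -53 from the start, and none to GGAAA. The Acp5 window held 2 matches to GGAAA and 1 to CATGTG, while the other Acp5 starts held 1 GGAAA match each. The Slc37a2 window held 3 matches to GGAAA, 1 to TGANTCA and 1 to GAGGAA, the last of which shares letters with a GGAAA match. In the same 250 bases of all 32851 promoter entries, GGAAA occurred in 55.6%, GAGGAA in 23.3%, CATGTG in 12.3%, TGANTCA in 6.75%, CACGTG in 6.02% and the NF-kB site in 1.41%. A match says only that the letters are present. Because the counts come from the 3′ end of transcripts, they do not tell which Acp5 start was used.

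Of the 5 genes, Ctsk, Mmp9, Acp5 and Car2 were lower in the mutant library, and by very different amounts, whereas Slc37a2 was not. Ctsk was at 57.0 CPM in the control library and 20.5 CPM in the mutant library (log2 ratio -1.47, -1.53 to -1.41). Mmp9 was at 58.0 CPM and 6.05 CPM (-3.26, -3.37 to -3.16). Acp5 was at 105 CPM and 69.0 CPM (-0.60, -0.64 to -0.57). Car2 was at 5.58 CPM and 1.27 CPM, which rest on 913 and 167 UMIs (-2.14, -2.38 to -1.90). Slc37a2 was at 78.9 CPM and 90.9 CPM (0.20, 0.17 to 0.24), and other scalings of the totals put this ratio between 0.09 and 0.14. With every cell weighed alike the Acp5 ratio was -0.37. The intervals of all 5 ratios leave out 0 and do not overlap one another, so the order from Mmp9 through Car2, Ctsk and Acp5 to Slc37a2 is larger than the counting error. Such sums do not tell fewer expressing cells from less RNA per cell, which shares of cells do in part.

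**Figure D1:**
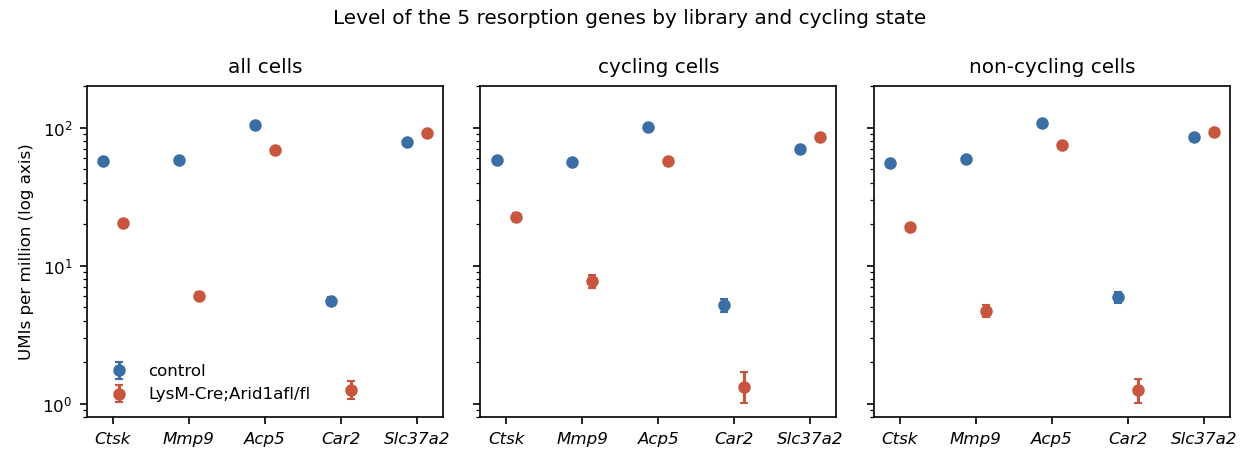
Level of each gene in CPM (log axis) in the control (blue) and LysM-Cre;Arid1afl/fl (red) library, over all cells, cycling cells and non-cycling cells, with exact Poisson intervals of 95%. Mmp9 shows the widest gap in each panel (58.0 against 6.05 CPM over all cells), and Slc37a2 is the gene for which the red point lies above the blue one.

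Among the 4 genes whose mean reached 20 CPM, Ctsk and Mmp9 were at least 2-fold lower in the mutant library and none was at least 2-fold higher. Among all 5219 genes at that level, 1.13% were at least 2-fold lower and 5.65% at least 2-fold higher, and their median log2 ratio was 0.02. Mmp9 had 2 genes below it in the order of log2 ratios and Ctsk had 17. Acp5 had 269 below it, and Slc37a2 had 3524, which is inside the bulk of the genes. Ctsk, Mmp9 and Acp5 are among the genes by which the study named OC precursors in these cells, so their direction is not independent evidence.

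Detection was compared with each cell thinned to 5000 UMIs, which left 6101 control and 5312 mutant cells. A UMI of Ctsk was found in 600 control cells (9.83%, 9.10 to 10.6) and 306 mutant cells (5.76%, 5.15 to 6.42). Mmp9 was found in 800 (13.1%, 12.3 to 14.0) and 64 cells (1.20%, 0.929 to 1.54). Car2 was found in 111 (1.82%, 1.499 to 2.19) and 34 cells (0.640%, 0.444 to 0.893). These genes were thus seen in a smaller share of mutant cells. Slc37a2, in contrast, was found in 1815 control cells (29.7%, 28.6 to 30.9) and 1826 mutant cells (34.4%, 33.1 to 35.7). Acp5, although lower in level, was found in a larger share of mutant cells, 1098 (20.7%, 19.6 to 21.8) against 962 control cells (15.8%, 14.9 to 16.7), a difference of 4.90 percentage points (3.47 to 6.34). At 2000 UMIs per cell this difference was gone (-0.0133, -1.10 to 1.08). Without thinning the difference was -9.26 percentage points for Ctsk, -25.6 for Mmp9, -4.75 for Car2 and 12.1 for Acp5. For Slc37a2 it was then 0.925 (-0.668 to 2.51), which is within counting error.

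Cells in the neutrophil gate served to judge free RNA, since neutrophils should lack most of these transcripts. In the mutant library, 75 such cells reached 5000 UMIs, with a median of 10828 UMIs before thinning against 22490 outside the gates. None of the 75 held Acp5, which allows a share of up to 4%, against 20.98% of the mutant cells outside the gates. Before thinning, however, the 89 mutant cells of the gate together held 19 Acp5 UMIs (16.5 CPM, 9.92 to 25.7), against 69.5 CPM outside the gates. Acp5 was thus not absent from the gated cells, and Slc37a2 was then at 37.3 CPM against 91.45 CPM. Whether these UMIs were free RNA was not tested. Ctsk was found in 1 of the 75 (1.33%, 0.0338 to 7.21) against 5.83% outside, and Slc37a2 in 4 (5.33%, 1.47 to 13.1) against 34.8%. Car2 was also found in 1 of the 75 (1.33%), with an interval of 0.0338 to 7.21% that takes in its 0.630% outside the gates, so this small share was not separated from background over all mutant cells. In mutant cells with 5 or more Ctsk UMIs, however, Car2 was at 42.1 CPM (27.0 to 62.7), against 0.981 CPM (0.813 to 1.17) in those without Ctsk. Neutrophils make MMP9, and Mmp9 was found in 4 of the 75 (5.33%), so it has no such background here; of its 795 UMIs in the mutant library, 52 were in the neutrophil gate and 20 in 3 cells of the stromal gate. Without all gated cells the log2 ratio of Mmp9 was -3.39, and those of Ctsk, Acp5, Car2 and Slc37a2 were -1.47, -0.59, -2.15 and 0.21. In the control library 17 neutrophil-gate cells reached 5000 UMIs, and Ctsk, Acp5, Car2 and Slc37a2 were in none of them, which allows up to 17.6%.

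The opposite signs of level and detection for Acp5 came with a change in its distribution over cells. At a minimum of 1 UMI the mutant share was higher, but at 2 UMIs it was 5.52% against 7.08% in the control, at 3 UMIs 2.05% against 4.75%, at 5 UMIs 0.584% against 2.39% and at 10 UMIs 0.151% against 0.688%. A positive cell held a mean of 2.72 UMIs in the control library, against 1.56 in the mutant library. Cells with 1 or 2 UMIs carried 31.1% of the control UMIs of Acp5 and 68.4% of the mutant ones. The number of cells needed to hold 50% of the Acp5 UMIs was 146 of 6101 in the control library and 267 of 5312 in the mutant library. Acp5 was therefore spread thinly over more cells in the mutant library and concentrated in fewer in the control library. The part of free RNA in the cells with 1 UMI was not tested.

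**Figure D2:**
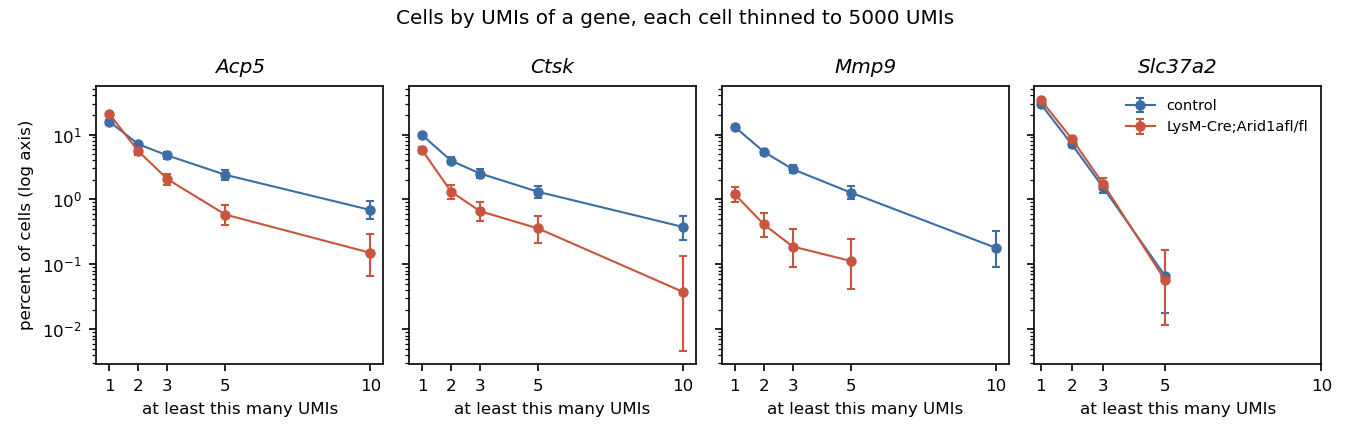
Percent of cells (log axis) with at least the number of UMIs on the x axis, each cell thinned to 5000 UMIs, in the control (blue) and LysM-Cre;Arid1afl/fl (red) library, with exact binomial intervals of 95%; points with no cell are left out. The lines of Acp5 cross between 1 UMI (15.8% and 20.7%) and 2 UMIs (7.08% and 5.52%), those of Ctsk and Mmp9 do not cross, and those of Slc37a2 lie close together.

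The mean per cell could be split into the share of positive cells and the UMIs per positive cell. For Mmp9, -3.44 of the log2 ratio of -3.58 at 5000 UMIs lay in the share, and the mean of positive cells went from 2.08 to 1.89 UMIs. For Ctsk, -0.77 lay in the share and -0.54 in the UMIs per positive cell, which were 2.40 and 1.66. For Acp5 the terms were 0.39 and -0.80. For Slc37a2 a positive cell held 1.31 UMIs in both libraries, so nearly all of its difference (0.21 of 0.22) lay in the share. The mean per cell was only 0.39 and 0.45 UMIs for Slc37a2, and 0.27 and 0.023 UMIs for Mmp9. At such low counts more or less RNA in each cell also moves the share. The split therefore does not tell the number of expressing cells from the RNA per cell.

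The genes were seen together in the same cells far more often in the control library. There Ctsk, Mmp9 and Car2 were also each found in a larger share of cells. Joint counts of 3 or more genes were not set against the product of the single shares. At least 3 of the 5 were detected in 327 control cells (5.36%, 4.81 to 5.95) and 59 mutant cells (1.11%, 0.847 to 1.43), a difference of -4.25 percentage points (-4.90 to -3.61). At least 4 were detected in 132 and 6 cells, and all 5 in 22 control cells and in none of the 5312 mutant cells, which allows a share of up to 0.0565%. The shares with exactly 2 were 9.36% and 9.83%, with intervals that overlap. Acp5 with neither Ctsk nor Mmp9 was found in 507 control cells (8.31%, 7.63 to 9.03) and 984 mutant cells (18.5%, 17.5 to 19.6). Acp5 together with both was found in 172 (2.82%, 2.42 to 3.27) and 11 cells (0.207%, 0.103 to 0.370). Of the cells with at least 3 genes, 6.12% of the control and 6.78% of the mutant ones were among the likely doublets, against 5.31% and 4.99% of all cells.

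By pair, 45.3% of Ctsk-positive control cells held Acp5 (41.3 to 49.4), against 12.5% of the cells without Ctsk. In the mutant library these shares were 31.7% (26.5 to 37.2) and 19.996%. Without thinning, the share of Ctsk-positive cells with Acp5 was instead 6.31 percentage points higher in the mutant library, so the direction of this pair depended on depth. Of Acp5-positive cells, 28.3% of the control (25.4 to 31.2) and 8.83% of the mutant ones (7.22 to 10.7) held Ctsk, and 36.9% and 2.55% held Mmp9. Of Mmp9-positive cells, 44.4% of the control and 43.8% of the mutant ones held Acp5, but thinned to 10000 UMIs the mutant share was 18.7 percentage points higher. The joint number of Ctsk and Acp5 was 2.88 times the product of the shares in the control library and 1.53 times in the other. For Mmp9 and Acp5 it was 2.81 and 2.12 times. Ctsk and Mmp9 went the other way, with 2.87 times in the control and 3.80 times in the mutant library, the latter from 14 cells. Car2 had the closest company in the control library, where 74.8% of its 111 positive cells held Acp5, 62.2% Mmp9 and 46.8% Ctsk. Of the 34 mutant cells with Car2, 12 held Acp5, 2 held Ctsk and 1 held Mmp9, and for Car2 and Ctsk this was 1.02 times the product of the shares. Pairs with Slc37a2 had 1.29 to 1.79 times the product in control and 0.599 to 1.14 times in mutant cells.

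**Figure D3:**
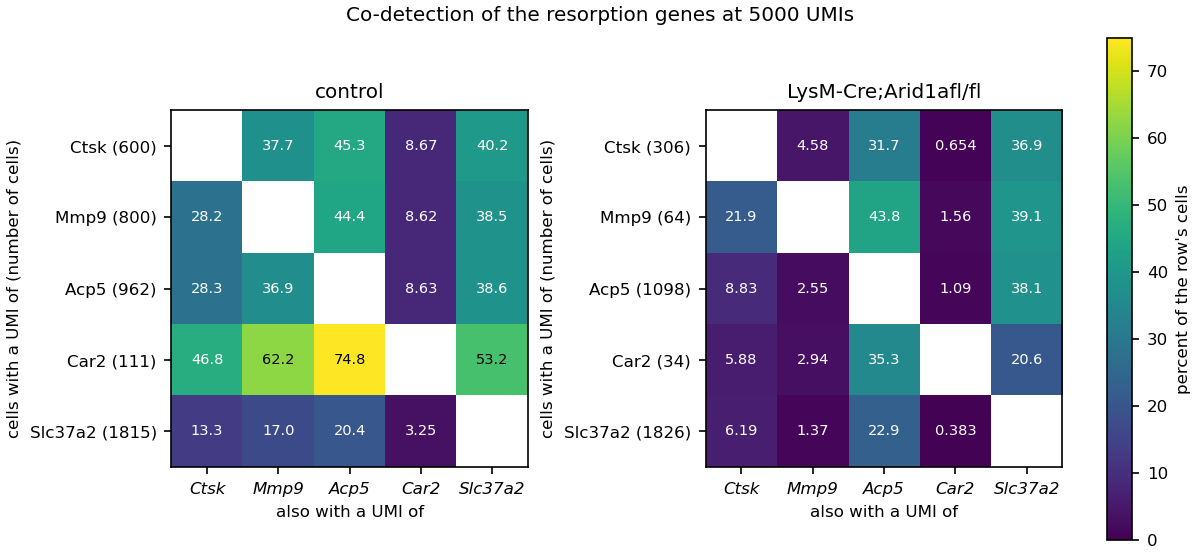
Percent of the cells with a UMI of the row's gene (number of cells in brackets) that also held a UMI of the column's gene at 5000 UMIs, for the control and the LysM-Cre;Arid1afl/fl library. In the Acp5 row, Ctsk goes from 28.3% to 8.83% and Mmp9 from 36.9% to 2.55%, whereas in the Mmp9 row Acp5 is at 44.4% and 43.8%.

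Levels of the other genes were then read in cells grouped by Mmp9 or by Ctsk. In the 800 control and 64 mutant cells with Mmp9, Ctsk was at 225 and 239 CPM, with a log2 ratio of 0.09 (-0.06 to 0.23). Acp5 was at 437 and 613 CPM (0.49, 0.40 to 0.58), Car2 at 24.5 and 20.8 CPM (-0.24, -0.76 to 0.25) and Slc37a2 at 119 and 105 CPM (-0.18, -0.41 to 0.03). These values rested in large part on 6 mutant cells with 5 or more Mmp9 UMIs, where Ctsk was at 995 CPM against 455 CPM in 78 control cells, and Acp5 and Car2 had log2 ratios of 1.11 and 1.13. With 1 Mmp9 UMI, Ctsk was at 142 CPM in 468 control and 93.1 CPM in 42 mutant cells (-0.61, -0.90 to -0.32), and with 2 to 4 Mmp9 UMIs at 303 CPM in 254 and 188 CPM in 16 cells (-0.69, -1.05 to -0.35). The Acp5 ratio was 0.25 (0.10 to 0.40) and 0.07 (-0.13 to 0.27) in these strata, and that of Car2 -1.37 (-2.84 to -0.22) and -2.18 (-4.47 to -0.62), the latter from 6 and 3 mutant UMIs. In the cells without Mmp9, Ctsk was at 29.4 and 17.4 CPM (-0.75, -0.83 to -0.68), and Acp5 at 50.2 and 61.3 CPM (0.29, 0.24 to 0.34). In the 80 control and 19 mutant cells with 5 or more Ctsk UMIs, Mmp9 was at 420 and 225 CPM (-0.90, -1.18 to -0.64), and in the 5501 and 5006 cells without Ctsk at 38.5 and 3.49 CPM (-3.46, -3.61 to -3.32). Acp5 in those cells without Ctsk was at 55.3 and 59.4 CPM (0.10, 0.05 to 0.15), and in the cells with 5 or more Ctsk UMIs at 1304 and 791 CPM (-0.72, -0.86 to -0.58).

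Genes that did not take part in the grouping were followed across cells with 0, 1, 2 and at least 3 of the 5 genes. Nfatc1, the factor that drives this set, was at 26.7, 36.6, 98.2 and 253 CPM in these control cells and at 27.2, 27.5, 36.0 and 169 CPM in the mutant cells. In cells with none of the 5 genes Nfatc1 thus differed by 0.02 on the log2 scale (-0.07 to 0.11), and in cells with 2 genes by -1.45 (-1.60 to -1.30). Cells with the same number of genes did not hold the same genes in the 2 libraries, however. Over all cells, Acp5 with Slc37a2 was found in 371 control and 418 mutant cells, and Acp5 with Mmp9 in 355 and 28. The -1.45 therefore does not compare matched cells. Atp6v0d2, a subunit of the proton pump, was at 4.40 CPM in the control and 9.03 CPM in the mutant cells with none of the genes, and at 235 and 119 CPM in those with at least 3. Dcstamp, needed for fusion of precursors, was at 78.8 and 51.3 CPM in the cells with at least 3. The fusion gene Ocstamp was not lower there, at 31.5 and 37.7 CPM (0.26, -0.15 to 0.65). Ctsb, a lysosomal protease, and Mmp12, the macrophage elastase, took another course. In the same order of cells, Ctsb was at 2306, 2315, 1766 and 975 CPM in the control and at 3693, 3836, 3947 and 2776 CPM in the mutant library. Mmp12 was at 88.4, 109, 126 and 37.4 CPM in the control and at 529, 503, 482 and 472 CPM in the mutant library. Both were lowest in the cells with at least 3 of the genes, but only mutant Mmp12 fell at each step. Arid1a was at 52.2 and 47.6 CPM in control cells with none and with at least 3 of the genes. In the mutant library it was at 19.8 CPM (18.7 to 20.9) and 30.1 CPM (22.4 to 39.5), the latter from 51 UMIs in 59 cells.

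The cycling state was called at 5000 UMIs from 3 or more UMIs of the cell cycle genes Mki67, Aurka, Cdk1 and Top2a. This gave 2403 control cells (39.4%) and 1766 mutant cells (33.2%). Mki67 itself was lower in the mutant library (log2 ratio -0.77), as was Aurka (-0.20), whereas Top2a (0.09) and Cdk1 (0.12) were slightly higher. Without Mki67 the gate held 1740 of 6101 control and 1477 of 5312 mutant cells. Thinned to 2000 UMIs it held 913 control cells beside 5280 outside it, and 802 mutant cells beside 4707. The cycling shares of the libraries lay closer together under both. Without thinning they lay further apart, with 4449 control cells in the gate beside 1820 outside it, and 3402 mutant cells beside 2261. The gap between the libraries thus depended on the gate. Ctsk was at 58.6 and 22.6 CPM in the cycling cells of the control and mutant library (log2 ratio -1.38, -1.47 to -1.28) and at 55.9 and 19.2 CPM in the non-cycling cells (-1.54, -1.62 to -1.46). Mmp9 was at 56.2 and 7.71 CPM in cycling cells (-2.87, -3.02 to -2.71) and at 59.6 and 4.71 CPM in non-cycling cells (-3.66, -3.81 to -3.51). Both genes were therefore lower in the mutant library in either state, with the wider gap in non-cycling cells for Mmp9. Acp5 was the reverse, with 101 and 57.4 CPM in cycling cells (-0.82, -0.88 to -0.75) and 108 and 75.4 CPM in non-cycling cells (-0.51, -0.56 to -0.47). Car2 was at 5.17 and 1.32 CPM in cycling cells (-1.96, -2.37 to -1.58) and at 5.91 and 1.25 CPM in the others (-2.24, -2.55 to -1.93). Slc37a2 was at 69.7 and 86.1 CPM in cycling cells (0.30, 0.24 to 0.36) and at 85.9 and 93.4 CPM in the others (0.12, 0.08 to 0.17). No gene changed sign between the states. Ctsk and Mmp9 of the 4 genes at 20 CPM or more were at least 2-fold lower in each state and none was at least 2-fold higher. Over all genes, 1.34% of 5391 were lower by that measure and 5.75% higher in cycling cells, and 1.10% of 5071 were lower and 5.48% higher in non-cycling cells. Whether the ratios of the states differ between the genotypes was not tested.

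Within the control library, expression of these genes and cycling were not exclusive. Of Ctsk-positive control cells 44.3% were cycling (40.3 to 48.4), of those without Ctsk 38.8% (37.6 to 40.2), and of cells with at least 3 of the genes 38.8% (33.5 to 44.4). In the mutant library the shares were 32.7% (27.5 to 38.2), 33.3% (32.0 to 34.6) and 22.0% (12.3 to 34.7), the last from 13 of 59 cells. All these shares come from the gate with Mki67, so they are best compared within a library. Over cells with 0, 1 or 2, 3 to 5 and at least 6 cycling UMIs, control Mmp9 stayed between 54.0 and 60.3 CPM and Ctsk between 49.8 and 64.3 CPM. Slc37a2 went from 87.2 to 84.7, 73.2 and 65.2 CPM over the same control cells and from 96.8 to 89.3, 89.99 and 81.7 CPM in the mutant cells. Mutant Mmp9 was at 2.64, 7.18, 10.1 and 5.01 CPM, so its level did not follow the cycling UMIs in 1 direction.

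Interferon-induced transcripts, which mark a response that restrains OC formation, were higher in the mutant library for 10 of 10 listed genes (log2 ratios 1.22 to 4.13, all at least 2-fold, beside 5.65% of all genes). The list was chosen with earlier results of these data known, so this count is not independent evidence. Ifi44 (2.75 and 48.3 CPM) and Ifit2 (11.8 and 63.6 CPM) reached a mean of 20 CPM only through the mutant library. Cells of each library were split into 3 groups of equal size (tertiles) by their share of these UMIs. From the lowest to the highest tertile of control cells, Ctsk went from 91.8 to 48.8 and 29.3 CPM, Acp5 from 172 to 87.5 and 53.003 CPM, Mmp9 from 90.7 to 41.6 and 41.5 CPM, and Car2 from 9.90 to 4.89 and 1.78 CPM. The mutant tertiles lay close together for Ctsk, at 19.0, 22.1 and 20.5 CPM, and Acp5 went the other way, at 58.4, 69.6 and 79.6 CPM. The Acp5 ratio was -1.55 (-1.62 to -1.49) in the lowest tertiles and 0.59 (0.51 to 0.66) in the highest. The tertiles differ between the libraries in their interferon-induced level, since the list summed to 99.4, 337 and 1250 CPM in the control and 1300, 2112 and 4025 CPM in the mutant library. The highest control tertile and the lowest mutant tertile had nearly the same sum, a pairing chosen after the values were seen. Between them Ctsk was at 29.3 and 19.0 CPM (-0.63, -0.75 to -0.51), Mmp9 at 41.5 and 8.11 CPM (-2.36, -2.52 to -2.19), Acp5 at 53.003 and 58.4 CPM (0.14, 0.06 to 0.22), and Car2 at 1.78 CPM in both (0.00, -0.45 to 0.45). Cycling moved along the tertiles too, from 47.3% to 30.4% of control and from 37.1% to 28.7% of mutant cells, and its part in these levels was not tested.

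Depth per cell also moved with these genes. In cells with fewer than 15000 UMIs, with 15000 to just under 30000 and with 30000 or more, control Acp5 was at 35.5, 74.98 and 146 CPM and mutant Acp5 at 61.6, 65.8 and 74.2 CPM. The Acp5 ratio was therefore 0.79 (0.60 to 0.99), -0.19 (-0.25 to -0.13) and -0.97 (-1.03 to -0.92), and its sign depended on depth. Ctsk remained lower at each depth (-1.25, -1.21 and -1.60), as did Mmp9 (-2.55, -4.21 and -2.80), and Slc37a2 remained higher (0.30, 0.27 and 0.12). Cells with at least 3 of the genes had medians of 28848 (control) and 25639 UMIs (mutant), against 24266 and 22412 in all cells at 5000 UMIs. Their difference in share was -0.82 percentage points (-2.07 to 0.18) in cells with 5000 or more but fewer than 15000 UMIs and -7.00 (-8.53 to -5.50) in cells with 30000 or more. The part of depth in these differences was not tested.

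**Figure D4:**
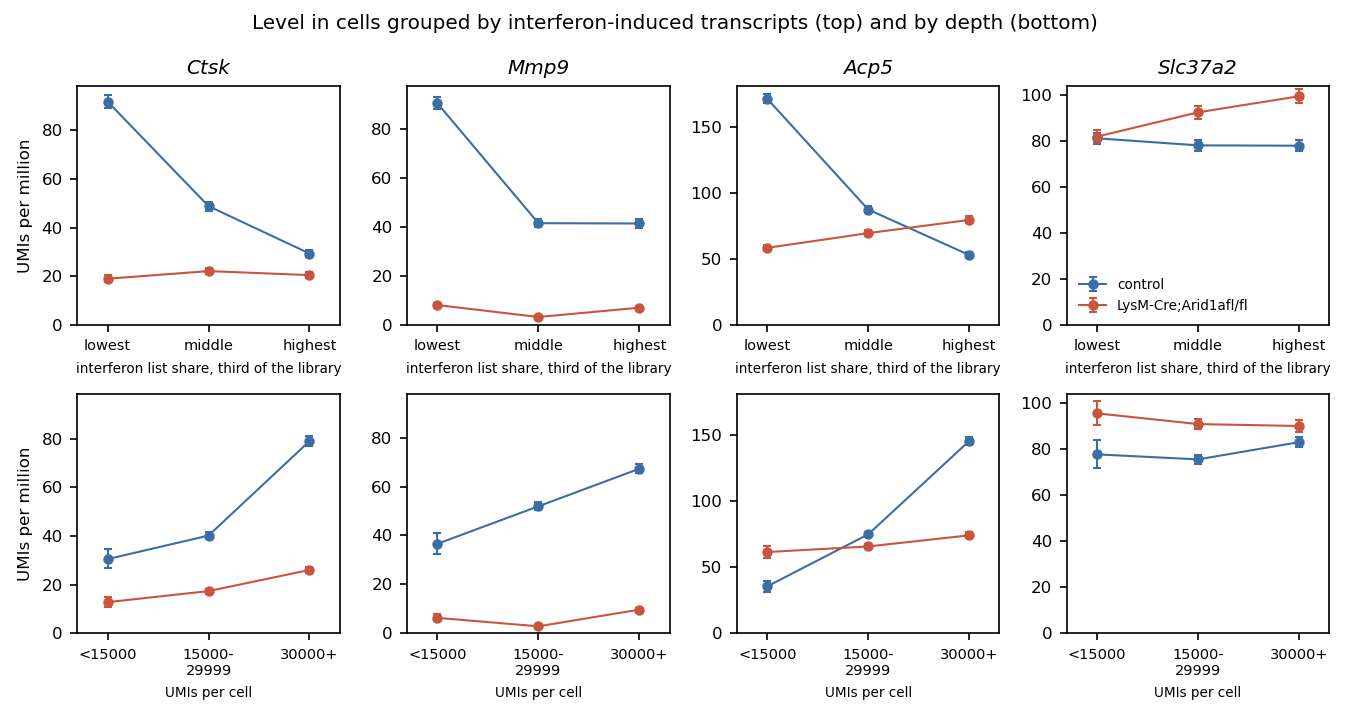
CPM of Ctsk, Mmp9, Acp5 and Slc37a2 in tertiles of each library by the share of 10 interferon-induced transcripts (top) and in 3 strata of UMIs per cell (bottom), for the control (blue) and LysM-Cre;Arid1afl/fl (red) library, with exact Poisson intervals of 95%. Control Acp5 goes from 172 to 53.003 CPM along the tertiles and from 35.5 to 146 CPM along depth, and crosses the flatter mutant line in both.

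A UMI of Arid1a was found at 5000 UMIs in 1344 control cells (22.0%) and 519 mutant cells (9.77%). In the mutant library, Ctsk was at 30.1 CPM in cells with Arid1a and 19.5 CPM in cells without, Mmp9 at 9.63 and 5.42 CPM, and Acp5 at 94.3 and 66.3 CPM. In the control library the order was the other way for Ctsk (44.5 and 60.6 CPM) and Acp5 (81.9 and 111 CPM), while Mmp9 was at 55.5 and 58.9 CPM. Slc37a2 was at 91.5 and 90.7 CPM in the mutant library. A cell without a UMI of Arid1a may still express it, and a UMI may come from a recombined transcript, so the split does not separate deleted from undeleted cells.

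Across the 6269 control cells, on a log2(1 + UMIs per 10000) scale, the genes most like each other were largely the same few. Acp5 had its highest correlations with Atp6v0d2 (r = 0.71), Bdh2, a dehydrogenase (r = 0.59), Ctsk (r = 0.56), Nfatc1 (r = 0.56) and Mmp9 (r = 0.56). Acp5 also led for Ctsk (r = 0.56), Mmp9 (r = 0.56) and Car2 (r = 0.56). Jdp2, an AP-1 family factor, came next for Mmp9 (r = 0.47). For Slc37a2 no r exceeded 0.30, the highest being Atp6v0d2, Acp5, Bdh2, the proton pump subunit Atp6v1a and Nfatc1 (r = 0.23 to 0.30). Over the 5663 mutant cells the same pairs with Acp5 were at 0.18 for Atp6v0d2, 0.08 for Bdh2, 0.22 for Ctsk, 0.13 for Nfatc1 and 0.18 for Mmp9. The cells of a library share its depth and free RNA, genes detected in fewer cells reach lower values, and these correlations are a description.

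Most of the other genes of resorption were not lower in the mutant library. Of 31 listed genes, 20 had a mean of at least 20 CPM, and of these none was at least 2-fold lower and 3 were at least 2-fold higher in the mutant library (15%, beside 5.65% of all genes), with a median log2 ratio of 0.34. The 3 were the proteases Mmp12 (96.4 and 514 CPM, 2.42) and Ctsd (2094 and 5381 CPM, 1.36), and Ptk2b, a kinase of the sealing zone (43.8 and 108 CPM, 1.30). Mmp12, Ptk2b, Ctsb, Slc4a2, Lamp1, Sh3pxd2a and Oscar overlap a protein-coding gene on the opposite strand and are uncertain by its reads. The proteases Ctsb (0.80) and Ctsl (0.59) were also on the higher side. The acidification genes at that level, the pump subunit Tcirg1, the chloride antiporter Clcn7 and its partner Ostm1, the anion exchanger Slc4a2 and the sorting nexin Snx10, lay between -0.15 and 0.72. Itgav and Gsn of the sealing zone were at 0.53 and 0.17. Rab7, Lamp1 and Plekhm1, which carry lysosomes to the ruffled border, lay between 0.20 and 0.34. Of the regulators, the RANKL receptor Tnfrsf11a (0.35), Spi1, which encodes PU.1 (0.20), Mitf (0.18) and Fos (0.63) were not lower, whereas Nfatc1 was at 51.6 and 29.9 CPM (-0.79, -0.84 to -0.73). The filter on the mean shaped these counts. Atp6v0d2 (26.8 and 10.9 CPM) missed it through its mutant level, and Ostm1 (16.7 and 27.6 CPM) and Plekhm1 (18.1 and 22.9 CPM) passed through theirs. In non-cycling cells Atp6v0d2 passed and was at least 2-fold lower (-1.08). There 1 of 21 listed genes was lower and 3 were higher, beside 1.10% and 5.48% of all genes.

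Among the 11 listed genes with a mean under 20 CPM, the pump subunit and the fusion genes were lower. Atp6v0d2 was at 26.8 and 10.9 CPM (-1.30, -1.39 to -1.21), Dcstamp at 11.8 and 2.305 CPM (-2.36, -2.54 to -2.19), the fusion gene Ocstamp at 4.93 and 2.94 CPM (-0.75, -0.93 to -0.57) and Src, a kinase needed for the ruffled border, at 15.7 and 7.90 CPM (-0.99, -1.10 to -0.89). Oscar, an OC receptor, had 15 control and 0 mutant UMIs. Itgb3, the OC vitronectin receptor subunit, had 16 and 62 UMIs and was under 1 CPM in both. Mmp14, Lrrk1 and Sh3pxd2a lay between -0.25 and 0.43, Rab27a was at 1.32 and 2.997 CPM, and Syt7 had 20 and 7 UMIs.

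**Figure D5:**
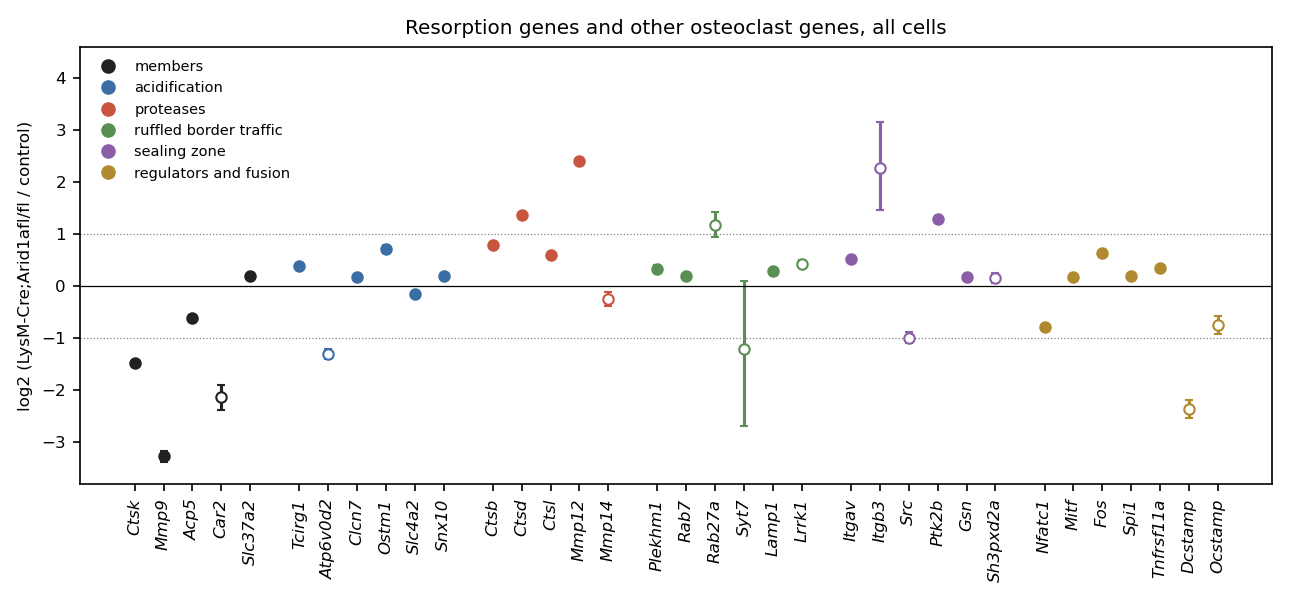
log2 ratio of the LysM-Cre;Arid1afl/fl over the control library for the 5 resorption genes (black) and 30 of the 31 other listed genes by role, with exact conditional intervals of 95%. Open circles have a mean under 20 CPM, dotted lines mark 2-fold, and Oscar, with 0 mutant UMIs, is not drawn. Mmp9 (-3.26) and Mmp12 (2.42) mark the ends among the filled circles.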

How the data were processed

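scRNA-Seq libraries of RANKL-induced BMDMs were made with a 10x Genomics 3′ v3.1 kit. The authors deposited raw UMI counts per gene and barcode, which per the file headers come from Cell Ranger (6.1.0), with GRCm39 as the study's genome. The methods name aggregation, which can subsample reads, and neither a doublet filter nor strand use was stated. Groups came from the genotype labels, with 1 library each. Counts were summed per library and scaled to 1000000 UMIs. Intervals were exact (Poisson, conditional for ratios, Clopper-Pearson for shares) and combined by square-and-add for differences of shares, with no test. Cells were thinned at random without replacement to 5000 UMIs for shares, co-detection and the cycling gate; 168 control and 351 mutant cells were shallower. Levels by state used all UMIs of cells with at least 5000. Doublets were kept, and 324 control and 266 mutant cells that scored highest against simulated doublets were removed as an alternative. Named genes were the 5 members, the listed resorption and interferon-induced genes, and for each member the 5 genes with the highest Pearson r across control cells among those averaging 20 CPM or more. The members and lists were chosen with earlier results of these data known. Positions came from GENCODE M39, in which 31977 of 32544 identifiers were found, and promoters from RefSeq (GRCm38.p6). Alternatives were other scalings, cell filters, thinning depths, detection minimums, cycling gates, fold rules, gated cells or doublets removed and, chosen after seeing the data, strata of UMIs per cell. A 2-fold rule with a mean of at least 20 CPM stood in for a test. The scripts, run with Python 3.11.15, numpy 2.4.6, scipy 1.17.1 and edgeR 4.0.16 (TMM factors), were tested on simulated data.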

Additional observations from a re-analysis of the deposited data

Results flagged for a closer look

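Barcodes left out by the filter on genes and mitochondrial UMIs were not used in any comparison. In the 202 such mutant barcodes Acp5 was at 63.6 CPM (21 UMIs, 39.4 to 97.2), above the 20.7 CPM (8 UMIs, 8.95 to 40.9) of the 186 left-out control barcodes, with a log2 ratio of 1.62 (0.38 to 3.002). This was picked out because a signal in unused data stood above its level in the control. Of the other genes, Ctsk had 18 and 2 UMIs there, Mmp9 9 and 2, and Slc37a2 50 and 62.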

How the results depend on the processing

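Of 343 alternative values, 208 stayed inside the counting interval of the reported value and 132 moved outside it. Another 3 passed to the other sign with the intervals of both values leaving out 0. Counts of genes past a fold have no interval, and were taken as moved when they changed by more than 1.5-fold or from 0. The causes were not tested. Whatever the intervals, 18 of 315 ratios and share differences had the other sign. Scaling by edgeR TMM factors, by median-of-ratios factors or by totals without mitochondrial and ribosomal protein genes shifted the mutant total by 0.06, 0.09 and 0.11 on the log2 scale. In that order the log2 ratio was -1.54, -1.56 and -1.58 for Ctsk, -0.67, -0.69 and -0.71 for Acp5 and 0.14, 0.11 and 0.095 for Slc37a2, and without those genes -3.37 for Mmp9. With every cell weighed alike it was -3.04 for Mmp9, -0.37 for Acp5 and 0.25 for Slc37a2. Acp5 was at -0.56 with a stricter cell filter and at -0.65 without likely doublets, and Mmp9 at -3.39 without the gated cells.

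In cells with fewer than 15000, with 15000 to just under 30000 and with 30000 or more UMIs, Ctsk was at -1.25, -1.21 and -1.60, Mmp9 at -2.55, -4.21 and -2.80, Acp5 at 0.79, -0.19 and -0.97, and Slc37a2 at 0.30, 0.27 and 0.12. Car2 was at -1.45, -1.80 and -2.31. The difference in the share of cells with at least 3 of the genes was -0.82, -3.46 and -7.00 percentage points over these strata, -1.93 and -6.91 when thinned to 2000 and 10000 UMIs, -11.6 without thinning and -1.66 with at least 2 UMIs required. The 3 were Acp5 in the shallowest cells, the share of cells with Acp5 at 2 UMIs or more (-1.56) and the share of Ctsk-positive cells with Acp5 without thinning (6.31). Of the other 15, 1 was the share of cells with Acp5 at 2000 UMIs (-0.0133) and 14 were shares of 1 gene's cells with another, among them Mmp9-positive cells with Acp5 thinned to 10000 UMIs (18.7) or not thinned (13.4), Ctsk-positive cells with Slc37a2 not thinned (3.84), Slc37a2-positive cells with Acp5 at 2 UMIs or more (-13.9) and Mmp9-positive cells with Car2 under another random seed (0.167).

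Without the filter on low levels, 4 of the other resorption genes were at least 2-fold lower and 5 higher, and at 1.5-fold 1 was lower and 7 higher. Over all genes these counts were 2430 and 3159 of 18936 without the filter, 293 and 659 at 1.5-fold, and 90 and 246 on totals without mitochondrial and ribosomal protein genes. No paired analysis was possible because each group was 1 library. With 1 library per genotype, differences between animals, cultures and library preparations cannot be told apart from the genotype.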
